A study of Mus musculus with 2 samples.

Results

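Complement genes expressed outside the liver were followed in the neonatal mouse heart. The 8 genes are C2, C3, C4b, C1ra, C1s1, Cfb, Cfd and Serping1, out of 31053 genes in the count tables. They were chosen as a set with measured UMI levels in these same 2 libraries known. Their levels by cell class are therefore given as a description. Cells were assigned to classes by unique molecular identifier (UMI) counts of gate genes, namely Cdh5 for endothelium, Pdgfra and Pi16 for fibroblasts, Myh11 for smooth muscle, Kcnj8 for pericytes, Csf1r for macrophages and Upk3b for epicardium. The name given to the set held in part. The data placed C3 mainly in the epicardium, where C2 was also at its highest level. C1ra and C1s1 were highest in smooth muscle and epicardium, and Serping1 was found in all stromal classes. Cfb was mainly a macrophage transcript at P1, and Cfd gave no UMI in any barcode.

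The study profiled live cells sorted from postnatal day 1 (P1) and day 7 (P7) hearts by droplet 3′ RNA sequencing. Each age was a pool of 3 hearts from 1 litter and gave 1 library, with collagenase digestion for 20 minutes at P1 and 45 minutes at P7, and the labels name no genotype, strain or treatment. With 1 library per age no difference between ages has a replicate check, and no test was made. All intervals are 95% intervals that cover counting error only.

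Complement is a cascade of plasma proteins that marks surfaces for uptake by phagocytes and for lysis. The classical route starts with the proteases C1r and C1s, which cleave C4 and C2 to build a convertase that splits C3, the step at which all routes meet. The alternative route builds its convertase from factor B with the help of factor D, and C1 inhibitor, the product of Serping1, blocks C1r and C1s. Most circulating complement comes from the liver, while fibroblasts, mesothelial cells and macrophages are known local sources.

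After filtering, 4991 cells were kept at P1 and 8511 at P7, with median depths of 10875 and 10104 UMIs. The libraries shared 13 barcodes. The P1 library held 57336 Xist UMIs and 2 UMIs of 4 Y-linked genes, against 12 and 18039 at P7, so that age, sex of the pool and digestion time cannot be told apart. The epicardial class held 49 cells at P1 and 28 at P7 (0.982% and 0.329% of cells), and all 7 of its check markers, Upk1b, Msln, Wt1, Bnc1, Krt19, Lrrn4 and Muc16, were at their highest there in both libraries. That class also held fibroblast markers at 22718 CPM at P1 and 19610 CPM at P7 (summed UMIs scaled to the class total). Pdgfra fibroblasts held 25316 and 37453 CPM of them. Pi16 fibroblast markers stood at 1307 and 1187 CPM, against 1377 and 3530 in Pi16 fibroblasts and 1708 and 2726 in endothelium. Whether epicardial cells express these genes or the class includes fibroblasts was not tested. There were 841 and 789 Pdgfra fibroblasts, 199 and 1624 Pi16 fibroblasts, 160 and 409 smooth muscle cells, 183 and 328 pericytes, 1549 and 3027 endothelial cells, and 181 and 174 macrophages at P1 and P7, respectively. A further 1791 and 1834 cells passed no gate or could not be placed.

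Certain gates held cells with UMIs of genes typical of other tissues or classes. In the P1 library, 30 of the 49 epicardial cells carried a UMI of a lung or posterior gene, compared with 4 of 28 at P7. These genes were Hoxa5, Hoxb5, Tbx4, Foxf1, Foxf2 and the alveolar genes Sftpc, Sftpa1, Sftpb, Ager, Cldn18, Lamp3 and Rtkn2. The alveolar genes alone summed to 9.48 CPM in the P1 epicardium and 22.8 CPM in P1 Pdgfra fibroblasts. Whether the epicardial cells with such a UMI came from another tissue was not tested. Of the P1 Pi16 fibroblasts, 79 of 199 lacked a Pdgfra UMI and 38 carried at least 2 UMIs of the leukocyte genes Ptprc and Tyrobp. Only 1 of the 6 check markers of this class was at its highest there at P1. At P7, 224 of 1624 Pi16 fibroblasts lacked a Pdgfra UMI and 27 carried such leukocyte UMIs. The main values these cells touch are given with and without them.

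C3, the central component of the cascade, was an epicardial transcript in both libraries. Its level in the epicardium, as UMIs summed over the class and scaled to the class total (CPM), was 1951 (1851 to 2054, 1440 UMIs) at P1 and 1593 (1469 to 1724, 616 UMIs) at P7. Among the other gated classes, macrophages came next at 41.4 and 44.9 CPM, which placed the epicardium 46.9-fold above them at P1 and 35.3-fold above them at P7. Pdgfra fibroblasts, smooth muscle and endothelium held between 0.149 and 0.844 CPM, and pericytes held 0 UMIs at P1, which allows up to 1.49 CPM, and 1 at P7. The epicardial class, a minute share of the cells, thus held 81.0% of all C3 UMIs at P1 and 71.8% at P7.

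The gene lies on the minus strand at chr17:57203970-57228136 of GRCm38 (ENSMUSG00000024164). The RefSeq promoter window, from 250 bases before to 50 after the start, is shown because the epicardium held a larger share of its UMIs than of any other member's. Capitals mark matches to a C/EBP motif (TTNNGCAA) and a TATA motif (TATAAA). The C/EBP match lies on the strand opposite to the letters shown, so its letters fit the motif only when read in reverse complement. The C/EBP match begins at base -45 from the RefSeq start, before it, and the TATA match at base 14, after it.
C3 promoter, chr17:57228087-57228386, minus strand, GRCm38.p6: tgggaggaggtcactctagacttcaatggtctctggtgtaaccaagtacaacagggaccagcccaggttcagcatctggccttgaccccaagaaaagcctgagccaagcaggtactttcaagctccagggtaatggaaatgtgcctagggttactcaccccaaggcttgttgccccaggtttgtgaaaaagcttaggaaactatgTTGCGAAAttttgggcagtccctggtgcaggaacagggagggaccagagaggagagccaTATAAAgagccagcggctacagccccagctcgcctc
Both strands of the windows were searched for GAS (TTCNNNGAA), ISRE (GAAA and GAAA parted by 2 bases), C/EBP, kappaB, CArG and TATA motifs. Among 32544 promoters, 10.8% held the C/EBP motif and 13.6% the TATA motif, so both matches are common and describe the letters only. RefSeq windows matched 4 of the 8 genes, C3, C1ra, C1s1 and Cfd, and the Cfd window held no match.

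**Figure D1:**
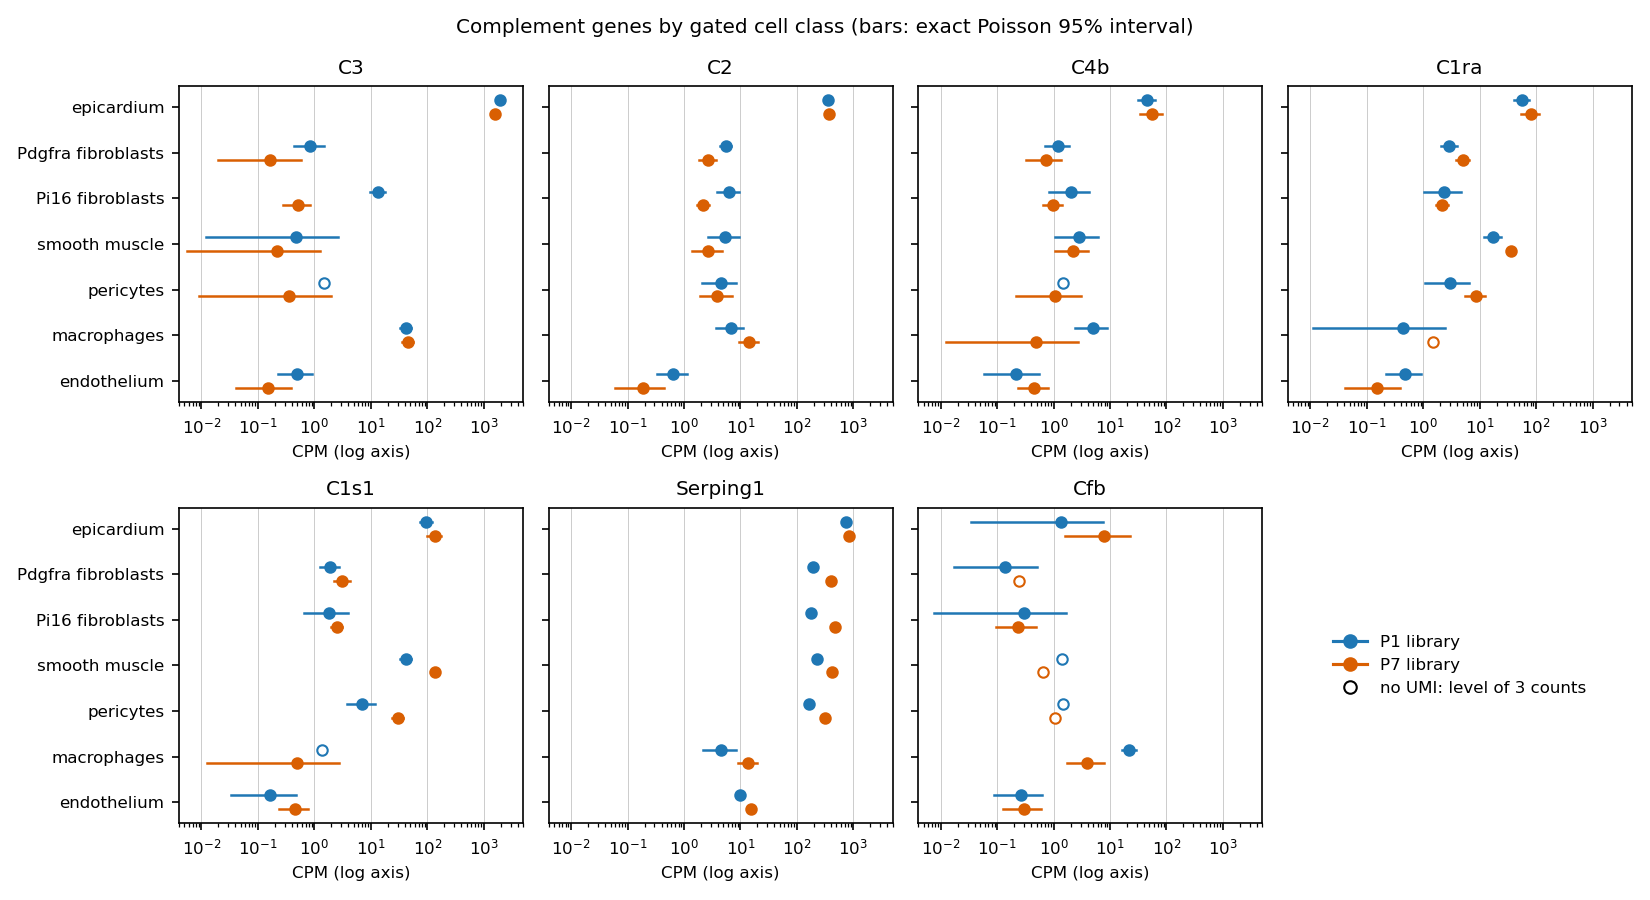
Level of 7 complement genes in 7 gated cell classes, as CPM of summed UMIs on a log axis, with exact Poisson 95% intervals for the P1 (blue) and P7 (orange) libraries. Open circles stand at the level of 3 counts where a class had no UMI. C3 and C2 stand far to the right in the epicardium, Serping1 lies above 165 CPM in all 5 stromal and epicardial classes and below 16 in the others, and Cfb lies highest in P1 macrophages.

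Nearly every epicardial cell contained C3. A C3 UMI was found in 48 of 49 epicardial cells at P1 and 27 of 28 at P7, compared with 1 of 38 and 1 of 298 lymphocytes, which served as the background class. The P1 lymphocyte class was small and not pure, with 2 alveolar cells and 2392 summed CPM of macrophage markers, against 175 at P7. Median depth was 15359 and 14364 UMIs in the epicardium and 5269.5 and 5140.5 in lymphocytes. After each cell was thinned to 2000 UMIs, the epicardial counts were 42 of 49 and 20 of 28, and no lymphocyte of 38 and 277 kept a C3 UMI. Single epicardial cells spanned 0 to 7884 CPM at P1, with a median of 1509, and 0 to 4718 CPM at P7, with a median of 1224. The richest cell held 7.43% of the epicardial C3 UMIs at P1 and 11.5% at P7.

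Macrophages formed a second, weaker C3 source with 93 UMIs in 50 of 181 cells at P1 and 91 UMIs in 40 of 174 cells at P7. In the P1 Pi16 fibroblasts, the C3 level of 13.3 CPM (45 UMIs) rested on the leukocyte-marked cells. There, 37 of the 45 UMIs lay in the 38 cells with Ptprc and Tyrobp UMIs, whose Lyz2 level was 10954 CPM and Col1a1 level 196 CPM. The other 161 cells held 8 C3 UMIs, or 2.54 CPM. With a Pdgfra UMI required, 2 C3 UMIs were left in 120 cells, or 0.811 CPM. Among P7 Pi16 fibroblasts, 9 of 15 C3 UMIs lay in the 27 leukocyte-marked cells. Ungated cells gave a similar picture. A single P1 cell with at least 2 Upk3b UMIs held 60 of the 173 ungated C3 UMIs and 207 leukocyte-marked cells held 70, while at P7 the corresponding 3 and 152 cells held 58 and 64 of 127.

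C2, the protease subunit of the classical convertase, followed C3 into the epicardium. The gene (ENSMUSG00000024371, chr17:34862604-34898265, minus strand) stood at 351 CPM (309 to 396, 259 UMIs) in the P1 epicardium and 375 CPM (316 to 441, 145 UMIs) at P7. The macrophages that came next reached 6.67 and 14.3 CPM, and fibroblasts, smooth muscle and pericytes lay between 2.21 and 6.23 CPM. Endothelium held 0.648 and 0.187 CPM. Relative to Pdgfra fibroblasts, the epicardial level was 62.9-fold higher at P1 and 140-fold higher at P7. A C2 UMI was found in 45 of 49 and 25 of 28 epicardial cells, against 1 of 38 and 5 of 298 lymphocytes. The epicardium held 55.6% of C2 UMIs at P1 and 38.7% at P7, with most of the rest spread thinly over the abundant fibroblasts and ungated cells. Of the transcript's last 500 bases, where 3′ reads fall, 6.4% are shared with Gm20547, a gene on the same strand whose exons overlap both C2 and Cfb and which had no UMI.

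C4b, which encodes the C4 protein that pairs with C2, was also at its highest in the epicardium but was sparse. Its level there was 44.7 CPM (30.8 to 62.8, 33 UMIs) at P1 and 54.3 CPM (33.6 to 83.0, 21 UMIs) at P7, and no other gated class exceeded 4.89 CPM. It was seen in 12 of 49 and 12 of 28 epicardial cells. The epicardium held 31.1% of C4b UMIs at P1 and 13.2% at P7, while ungated cells held 26.4% and 44.0%. At P1, 31 of the 33 epicardial UMIs lay in the 30 cells with a lung or posterior UMI and 2 in the other 19, which gave 67.9 and 7.11 CPM. At P7 the 24 epicardial cells without such a UMI held 19 of the 21 UMIs, or 58.6 CPM. C4b (ENSMUSG00000073418, chr17:34728380-34743882, minus strand) and its neighbour C4a are 97.6% identical over their last 500 transcript bases, with a longest identical run of 131. C4a is not in the gene list of the count tables. Reads from stretches identical in both copies cannot be told apart.

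C1ra and C1s1, which encode the initiating proteases C1r and C1s, shared a pattern of their own. Both were high in smooth muscle as well as in the epicardium. C1s1 reached 96.2 CPM (75.1 to 121, 71 UMIs) in the epicardium and 41.4 CPM (33.2 to 51.1, 87 UMIs) in smooth muscle at P1. At P7 the levels were 134 CPM (100 to 176, 52 UMIs) and 139 CPM (128 to 150, 629 UMIs), which did not differ beyond counting error. Pericytes followed at 6.95 and 29.9 CPM. Fibroblast classes lay between 1.78 and 3.14 CPM and endothelium below 0.5 CPM. A C1s1 UMI was found in 45 of 160 smooth muscle cells at P1 and 244 of 409 at P7, and after thinning in 14 of 154 and 92 of 398, while no thinned lymphocyte held any.

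C1ra was highest in the epicardium in both libraries, with smooth muscle next. The epicardium held 55.5 CPM (39.9 to 75.4, 41 UMIs) at P1 and 80.2 CPM (54.5 to 114, 31 UMIs) at P7. Smooth muscle held 17.1 CPM (12 to 23.7, 36 UMIs) and 36.2 CPM (30.9 to 42.2, 164 UMIs), with pericytes at 2.98 and 8.55 CPM. At P7 the epicardium thus exceeded smooth muscle 2.24-fold for C1ra, unlike for C1s1. No lymphocyte carried a C1ra UMI, and macrophages held 1 UMI at P1 and none at P7. In thinned P7 smooth muscle, C1s1 was detected in 9 of the 20 cells with a C1ra UMI and in 22.0% of the others, and at P1 in 1 of 7 and 8.84%. None of the 5 Pdgfra and 11 Pi16 fibroblasts with a C1ra UMI at P7 held C1s1 after thinning. C1s1 was in only 0.771% and 0.435% of the other cells of these classes, too few to compare. In the thinned epicardium few cells held a C1ra UMI, and the shares below come from a single draw, so no direction is read from them. At full depth C1s1 was at least as common in epicardial cells with a C1ra UMI as in the others in both libraries. C1s1 was in 0 of 8 cells with a C1ra UMI and 34.1% of the others at P1, and in 1 of 7 and 28.6% at P7. Among 9179 genes compared over the 14 sums of 7 classes and 2 libraries, C1s1 was the gene whose log2(CPM + 1) was closest to that of C1ra (Pearson r = 0.967), a description over sums that share libraries and depth.

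Both genes lie close together on chromosome 6 in opposite directions, C1ra (ENSMUSG00000055172) on the plus strand at chr6:124512405-124523443 and C1s1 (ENSMUSG00000038521) on the minus strand at chr6:124530345-124542359. Their promoter windows are shown because the levels of the genes ran in parallel. Most of the C1ra window lies inside the gene as placed here. Capitals mark a C/EBP match in each and a GAS match in C1ra. The C1ra matches, C/EBP and GAS, begin at bases 16 and 32 from the RefSeq start. The C1s1 match begins at -242, where negative values lie before the start. The matches describe the letters only.
C1ra promoter, chr6:124512371-124512670, plus strand, GRCm38.p6: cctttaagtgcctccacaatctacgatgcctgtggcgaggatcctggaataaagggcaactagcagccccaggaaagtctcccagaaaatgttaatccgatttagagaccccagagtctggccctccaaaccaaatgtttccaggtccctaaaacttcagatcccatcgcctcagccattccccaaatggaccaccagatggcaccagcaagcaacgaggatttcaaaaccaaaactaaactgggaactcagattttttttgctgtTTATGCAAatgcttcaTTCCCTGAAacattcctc
C1s1 promoter, chr6:124542310-124542609, minus strand, GRCm38.p6: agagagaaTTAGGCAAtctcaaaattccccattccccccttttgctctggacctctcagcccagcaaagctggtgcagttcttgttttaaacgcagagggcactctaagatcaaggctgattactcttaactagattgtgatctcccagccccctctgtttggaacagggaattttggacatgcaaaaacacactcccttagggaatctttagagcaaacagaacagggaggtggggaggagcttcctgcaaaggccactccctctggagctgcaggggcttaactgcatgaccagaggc
The GAS motif was held by 8.33% of all promoters. A second, overlapping RefSeq window of C1s1 held no match. Over the last 500 transcript bases C1ra and its copy C1rb were 46.3% identical, and C1s1 and its copy C1s2 were 76.4% identical with a run of 100 identical aligned bases, so part of the reads of C1s1 and C1s2 may not have been assigned.

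Serping1, the inhibitor of both proteases, was the member found throughout the stroma. The epicardium again led with 745 CPM (684 to 810, 550 UMIs) at P1 and 851 CPM (761 to 948, 329 UMIs) at P7. Smooth muscle held 228 and 424 CPM, Pdgfra fibroblasts 192 and 403, Pi16 fibroblasts 176 and 479, and pericytes 165 and 308. At P1 Pi16 fibroblasts did not differ beyond counting error from Pdgfra fibroblasts or from pericytes, whereas Pdgfra fibroblasts exceeded pericytes 1.16-fold. The level of Pi16 fibroblasts rests on the mixed gate, since it was 189 CPM (174 to 205) without leukocyte-marked cells and 207 CPM (189 to 226) where a Pdgfra UMI was required, the latter above the interval of pericytes (148 to 184). At P7 Pi16 fibroblasts exceeded Pdgfra fibroblasts 1.19-fold, and smooth muscle and Pdgfra fibroblasts did not differ beyond counting error. Endothelium held 9.93 and 15.1 CPM and macrophages 4.45 and 13.8 CPM, near the 11.3 and 9.80 CPM of lymphocytes. All 49 and 28 epicardial cells carried the transcript, as did 82.5% and 94.4% of Pdgfra fibroblasts, against 5.26% and 3.36% of lymphocytes. The gene (ENSMUSG00000023224) lies at chr2:84765387-84775444 on the minus strand.

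Among fibroblasts, Serping1 differed between the subsets marked by at least 2 UMIs of Dpep1, Gdf10, Fmod or Pi16, which overlapped in 148 of 1040 cells at P1 and 449 of 2413 at P7. Gdf10 fibroblasts held 263 CPM (233 to 294) at P1 and 567 CPM (536 to 599) at P7, and Dpep1 fibroblasts 229 and 531 CPM. Fmod fibroblasts, with 80.6 CPM (65.9 to 97.6) and 205 CPM (182 to 230), stood lowest in both libraries. The Gdf10 subset also had the highest levels of C1s1, with 9.83 CPM (11 UMIs) at P1 and 21.9 CPM (48 UMIs) at P7, and of C2, with 12.5 CPM (14 UMIs) and 15.5 CPM (34 UMIs). The remaining fibroblast subsets held at most 3.47 CPM of C1s1 and 6.75 CPM of C2.

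Cfb, the protease of the alternative convertase, was mainly a macrophage transcript at P1 and too sparse at P7 to place. P1 macrophages held 49 of its 65 UMIs, at 21.8 CPM (16.1 to 28.8) and in 37 of 181 cells. In the P7 macrophages 8 UMIs gave 3.95 CPM (1.70 to 7.78). The epicardium held 1 UMI at P1 and 3 at P7, the latter at 7.76 CPM (1.60 to 22.7), which did not differ from macrophages beyond counting error. Pi16 fibroblasts held 7 of the 32 UMIs at P7, and Gdf10 fibroblasts 5, at 2.28 CPM (0.739 to 5.31). No UMI was found in smooth muscle and pericytes, which allows up to 1.43 and 1.49 CPM at P1 and 0.663 and 1.07 CPM at P7. The gene (ENSMUSG00000090231, chr17:34856374-34862518, minus strand) shares 92.4% of its last 500 transcript bases with Gm20547, and reads assigned to more than 1 gene are not counted, so its counts may be too low in every class.

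Cfd, or adipsin, a protease known from fat cells, was at 0 in all 7836 and 9077 barcodes. Over the cells kept, 0 UMIs allow a level of up to 0.0508 CPM at P1 and 0.0308 CPM at P7, provided that reads of the gene could be assigned to it. Whether they could be in the annotation used for the counts was not tested. The adipocyte genes Adipoq, Plin1, Cidec, Lep and Retn together gave 32 and 11 UMIs, with Adipoq at 1 and 0. The gene (ENSMUSG00000061780) lies at chr10:79890853-79892655 on the plus strand and no other gene on that strand overlaps its exons.

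**Figure D2:**
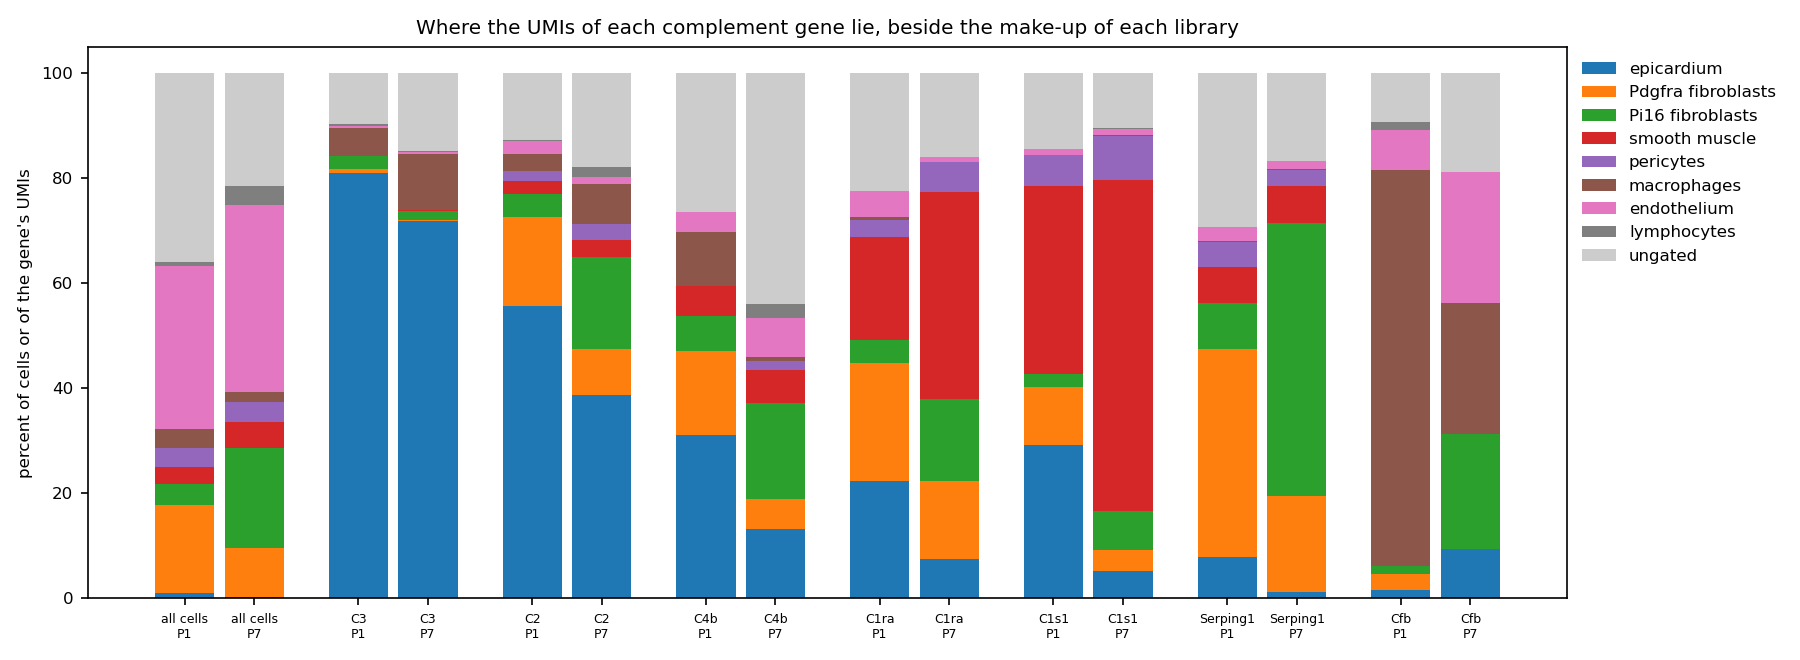
Percent of all cells (first pair of bars) and of the UMIs of each gene (other pairs) found in each class, for the P1 and P7 libraries. The epicardium, under 1% of cells, holds 81.0% and 71.8% of C3 UMIs, smooth muscle holds 35.8% and 63.1% of C1s1 UMIs, and Pi16 fibroblasts hold 8.60% of Serping1 UMIs at P1 and 52.1% at P7.

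The levels at P1 and P7 were then compared within each class, which asks whether the local complement genes change over the first postnatal week. A gene was counted when it differed more than 2-fold and had at least 20 UMIs in the class. In the epicardium none of the 6 measured members passed this mark, where 4.71% of all genes were higher at P7 and 5.86% higher at P1. C3 stood lower at P7, with a log2 ratio of -0.29 (-0.43 to -0.16), whereas C2 at 0.10 (-0.21 to 0.39) and Serping1 at 0.19 (-0.01 to 0.39) did not differ beyond counting error. C1ra, C1s1 and C4b had log2 ratios of 0.53, 0.49 and 0.29, each with an interval that included 0.

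In smooth muscle 2 of 4 measured members were higher at P7 and none at P1, where 2.68% and 5.14% of all genes were. C1s1 had a log2 ratio of 1.74 (1.42 to 2.09) and C1ra one of 1.06 (0.55 to 1.64). Pericytes showed the same 2 genes of 4 measured, with 3.01% of all genes higher at P7 and 3.68% at P1. There C1s1 had a log2 ratio of 2.06 (1.28 to 3.04) and C1ra one of 1.44 (0.19 to 3.1). Serping1 stood just under the mark in both mural classes, at 0.90 (0.75 to 1.04) in smooth muscle and 0.90 (0.72 to 1.09) in pericytes.

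In Pdgfra fibroblasts Serping1 was higher at P7, with a log2 ratio of 1.07 (1.00 to 1.14), and C2 higher at P1, with -1.05 (-1.70 to -0.46). The C2 ratio was -0.85 with gates at 1 UMI, -0.79 with every gate passed and -0.71 after thinning, each short of 2-fold. These were 1 of 5 measured members in each direction, where 3.07% of all genes were higher at P7 and 4.32% at P1. In Pi16 fibroblasts 1 of 6 members was higher at P7 and 3 at P1, with 5.15% and 9.98% of all genes. Serping1 had a log2 ratio of 1.44 (1.33 to 1.57), which was 1.35 without leukocyte-marked cells and 1.24 where a Pdgfra UMI was required. C2 had a ratio of -1.52 (-2.22 to -0.71), which was -1.62 and -1.84 in those cells but 0.0274 after thinning, when 1 and 11 cells held a C2 UMI. The C3 ratio of -4.70 (-5.68 to -3.86) drew most of its P1 UMIs from the leukocyte-marked cells described above. Without them it was -3.62 (-5.45 to -1.93), from 8 and 6 UMIs. It was -2.05 (-4.32 to 1.5) where a Pdgfra UMI was required, from 2 and 6 UMIs. C4b at -1.17 (-2.32 to 0.34), from 7 and 29 UMIs, was 0.66 with that requirement.

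In macrophages 2 of 4 measured members were higher at P7 and 1 at P1, with 5.64% and 3.19% of all genes. Cfb was lower at P7, with a log2 ratio of -2.39 (-3.76 to -1.38). C2 had a log2 ratio of 1.08 (0.15 to 2.10), and Serping1 had 1.59 (0.55 to 2.84) from 10 and 28 UMIs, of which a single P7 cell held 53.6%. C3 did not differ beyond counting error, with 0.12 (-0.32 to 0.55).

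**Figure D3:**
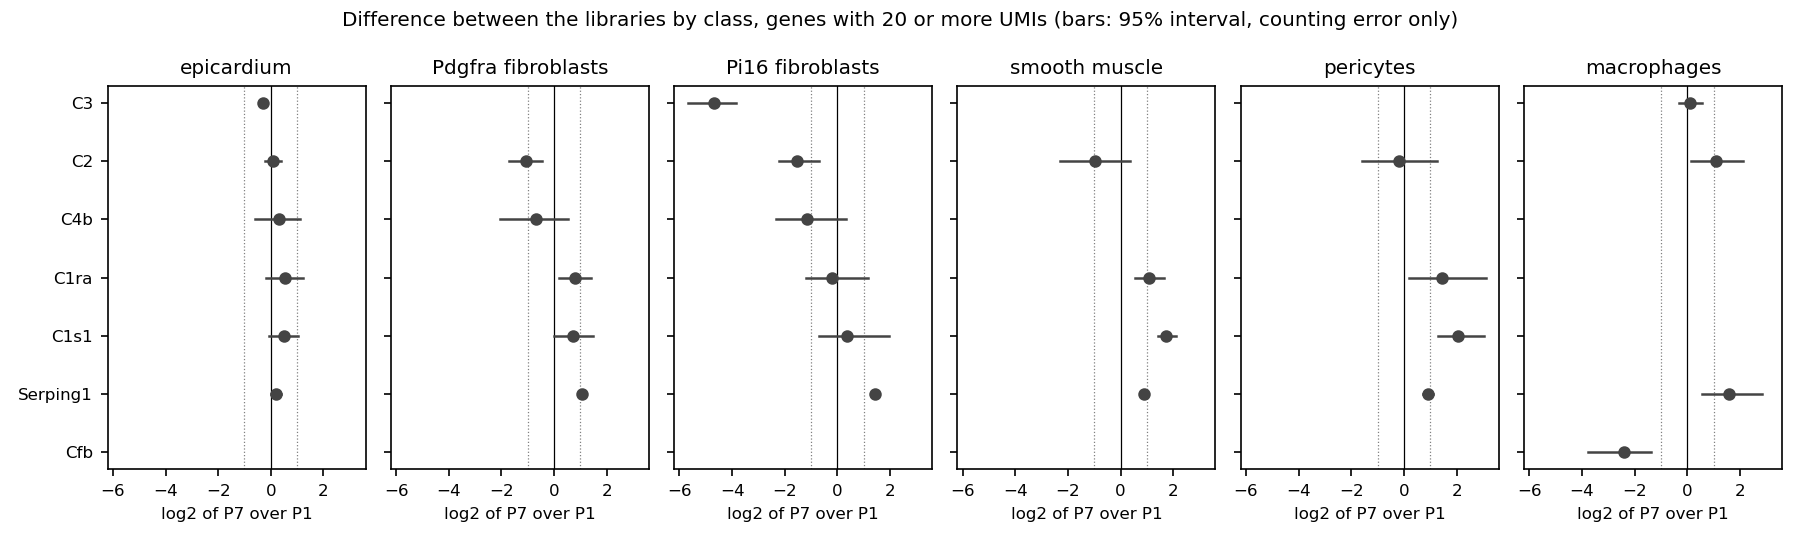
Log2 ratio of P7 over P1 for each gene in 6 classes, with exact conditional 95% intervals, for genes with at least 20 UMIs in the class. Dotted lines mark 2-fold. All 6 genes plotted lie within the lines in the epicardium, C1ra and C1s1 lie to the right of them in smooth muscle and pericytes, and Cfb lies to the left in macrophages.

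Levels over the whole libraries differed from levels within classes, and there the share of a class and the level per cell cannot be told apart. Over all cells kept, 2 of 7 members were more than 2-fold higher at P7 and 3 at P1, with 4.07% and 8.88% of all genes. C3 went from 30.1 to 8.81 CPM, a log2 ratio of -1.77 (-1.89 to -1.66), beside the far smaller ratio within the epicardium, whose share of cells went from 0.982% to 0.329%. Serping1 went from 117 to 282 CPM, a log2 ratio of 1.27 (1.23 to 1.31), beside ratios of 0.90 to 1.44 in the 4 stromal classes. C1s1 went from 4.12 to 10.2 CPM, with a log2 ratio of 1.31.

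Summed over cells, the epicardial levels of some members differed beyond counting error between P1 cells with and without a Hoxa5 UMI. The intervals do not cover the spread between cells, and single cells of the groups overlapped. At P1 the 23 epicardial cells with a Hoxa5 UMI held 1507 CPM of C3 and the 26 cells without 2394 CPM, a log2 difference of -0.67 (-0.82 to -0.51). Serping1 went the other way, with 903 and 588 CPM and a log2 difference of 0.62 (0.37 to 0.87), as did C1s1 with 122 and 70.4 CPM. C2 stood at 396 and 306 CPM. Msln, a mesothelial marker, was at 1526 and 2909 CPM in these cells and Wt1 at 382 and 276 CPM. When cells with any lung or posterior UMI were left out of both libraries, 19 and 24 epicardial cells remained, and the log2 ratio of P7 over P1 was -0.37 (-0.54 to -0.21) for C3, 0.50 (0.22 to 0.79) for Serping1, 1.01 (0.25 to 1.86) for C1s1, 2.76 (0.99 to 6.19) for C4b, 0.04 for C2 and 0.11 for C1ra. C1s1 and C4b then passed the 2-fold mark, C4b on 2 UMIs at P1. Where these cells came from, and their part in the differences between the ages, was not tested.

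**Figure D4:**
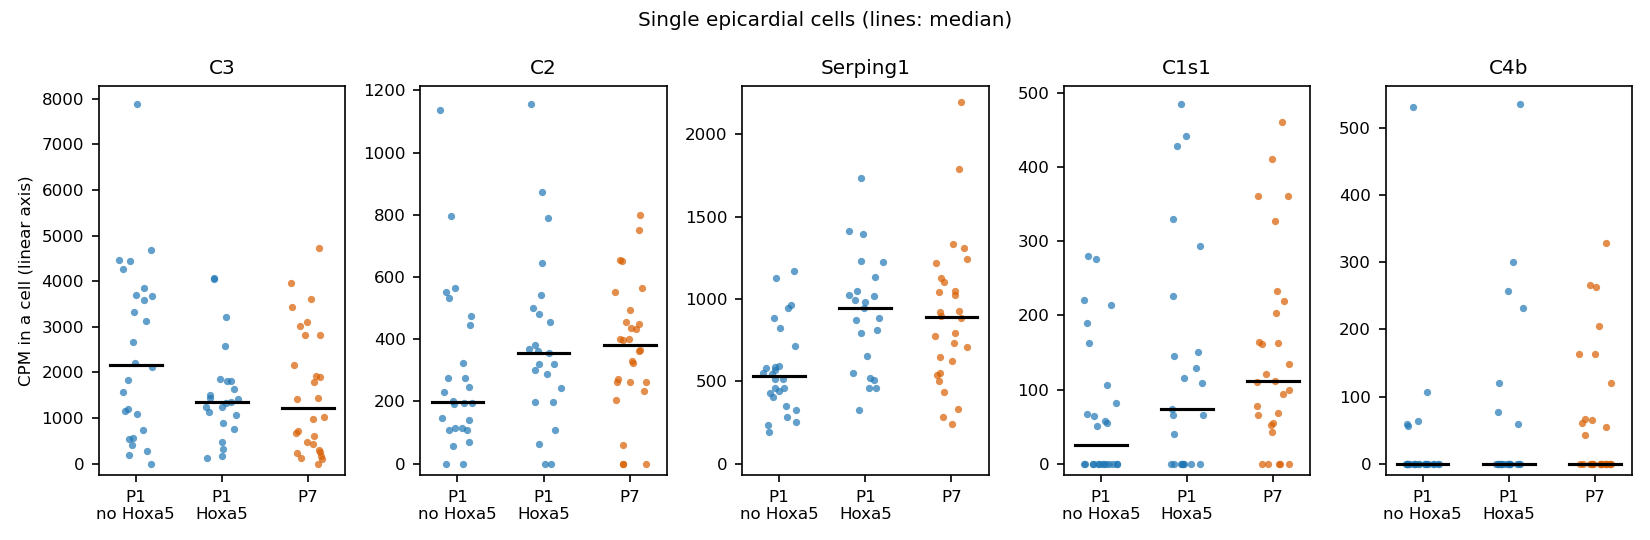
CPM of 5 genes in single epicardial cells on linear axes, for P1 cells without and with a Hoxa5 UMI (26 and 23 cells) and P7 cells (28 cells), with lines at the median. The 3 groups overlap for every gene, and the C4b median is at 0 in each.

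Epicardial cells held several members each. A median of 4 of the 7 members with any UMI was found per epicardial cell at P1 and 5 at P7, and 46 of 49 and 28 of 28 cells held at least 3, in a class where C3, C2 and Serping1 were each found in most cells. Within thinned cells the pairs showed no common direction. For instance, C3 was found in 87.5% of P1 epicardial cells with a C2 UMI and 84.0% of those without, and at P7 in 8 of 12 and 12 of 16 cells. C2 was found in 1 of 8 P1 cells with a C1ra UMI and 56.1% of the others, and at P7 in 42.9% of both. These shares come from a single draw with few cells. At full depth every P1 epicardial cell with a C1ra UMI also held a C2 UMI.

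The genes closest to each member were picked by correlation over the same 14 sums, so their likeness by class follows from the choice and is a description only. For C3 they were Bst1, a surface enzyme (r = 0.988), Ezr, which encodes ezrin (r = 0.968), and Tm4sf5 (r = 0.949). Ilvbl, Tm4sf5 and H6pd were closest to C2 (r from 0.942 to 0.976), and Fam46c, Mif4gd and Oplah to C4b (r from 0.957 to 0.959). Besides each other, C1ra had Mettl26 and Arhgap44 (both r = 0.949) and C1s1 had Fmc1 and Arhgap44 (r = 0.963 and 0.958). Serping1 was followed by Rarres2, which encodes chemerin (r = 0.975), Fxyd1 and Tubb4a, and Cfb by Nadk, Trem2, a myeloid receptor (r = 0.898), and Nceh1. Between members, r was 0.929 for C2 with C3 and 0.146 for C3 with Serping1.

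The other complement genes were examined by role. Of 45 further genes listed, 39 had a UMI. Among recognition genes, C1qa, C1qb and C1qc, the subunits of C1q that activate C1r and C1s, were macrophage transcripts, with C1qa at 2304 and 3606 CPM there and at most 2.85 CPM in the next of the 7 gated classes. C1qb stood at 1978 and 2607 CPM and C1qc at 1717 and 2206 CPM. The copies of the C1 proteases resembled C1ra and C1s1, with C1rb at 111 and 64.6 CPM in the epicardium and 18.6 and 27.2 in smooth muscle, and C1s2 at 21.7 and 44.0 CPM in the epicardium and 11.9 and 33.6 in smooth muscle. Colec11, a collectin that starts the lectin route, marked pericytes with 1007 and 1598 CPM, and Colec12, a scavenger receptor, the epicardium with 547 and 551 CPM. Masp1, a lectin route protease, was at 21.7 CPM in the P1 epicardium and without a UMI there at P7, which allows up to 7.76 CPM, while Pdgfra fibroblasts held 1.48 and 3.62 CPM. Fcna, a ficolin, stood at 123 and 28.1 CPM in macrophages, and Colec10 was low in Pi16 fibroblasts, at 3.56 and 3.28 CPM. Of the terminal pathway, C7 alone reached 50 UMIs in a class, at 2.17 CPM in P7 Pi16 fibroblasts.

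Regulators were spread over many classes. Cfi, the protease that inactivates C3b, went from 22.1 to 2.25 CPM in Pdgfra fibroblasts and was at 23.0 and 49.1 CPM in the epicardium. Clu, an inhibitor of the lytic complex, was at 534 and 189 CPM in the epicardium, and Vtn, another, at 199 and 538 CPM in pericytes. The membrane regulator Cd55 was highest in Pi16 fibroblasts with 80.6 and 223 CPM, and Cd59a in endothelium with 174 and 96.3 CPM. Cr1l was highest in endothelium with 117 and 121 CPM, near the 99.8 and 102 CPM of pericytes. Cd46 was highest in pericytes with 7.94 and 9.97 CPM, from 16 and 28 UMIs. At P1 its pericyte interval (4.54 to 12.9) held the 5.94 CPM of endothelium, which came next. Of 2 measured fluid regulators listed here in the epicardium, 1 was more than 2-fold higher at P7 and 1 at P1, where 4.71% and 5.86% of all genes were. They were Cfi, with 17 and 19 UMIs and a log2 ratio of 1.09 (0.07 to 2.13), and Clu.

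Receptors for the fragments were highest in macrophages. C3ar1, the receptor of C3a, stood at 239 and 231 CPM in macrophages and at most 1.48 CPM in the next of the 7 classes, and C5ar1 at 307 and 410 CPM. The P1 Pi16 gate, with its leukocyte-marked cells, came next for C5ar1 with 25.8 CPM. Itgam and Itgb2, which form complement receptor 3, stood at 187 and 133 and at 222 and 163 CPM in macrophages, and Vsig4, which binds C3b, at 40.0 and 46.9 CPM. None of the 9 measured receptor genes passed the 2-fold mark in macrophages, where 5.64% of all genes were higher at P7 and 3.19% at P1. Cfp, or properdin, which stabilises the alternative convertase, was at 237 and 138 CPM in macrophages. Cd93 was highest in endothelium with 559 and 754 CPM, and C1qbp was at similar levels in most classes, highest in P1 pericytes with 137 CPM and P7 smooth muscle with 162 CPM.

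**Figure D5:**
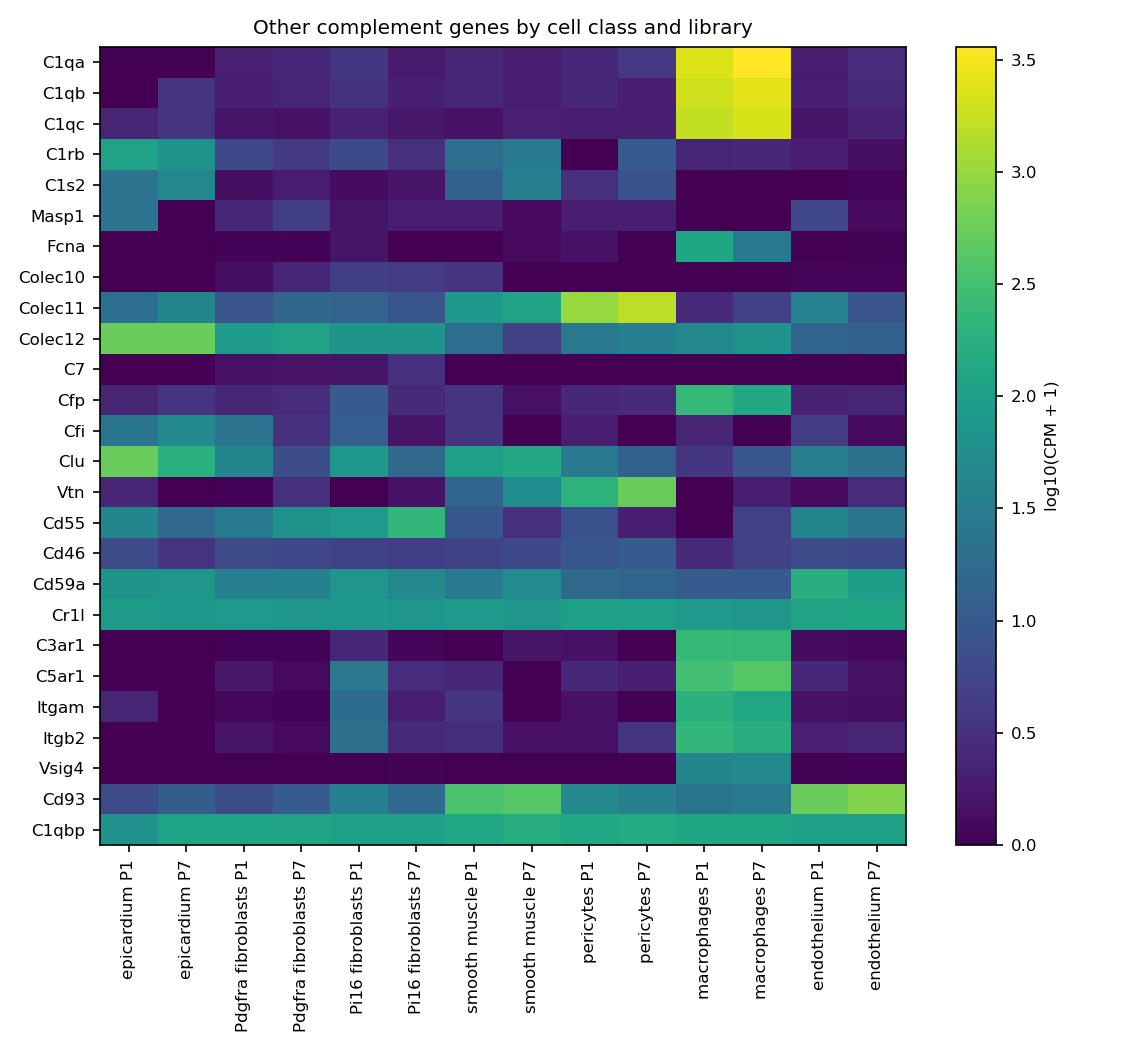
Level of 26 other complement genes, those with at least 50 UMIs in a class, as log10(CPM + 1) in 7 classes and both libraries. The C1q genes and the receptors C3ar1, C5ar1 and Vsig4 are brightest in macrophages, Colec11 and Vtn in pericytes, and Colec12 and Clu in the epicardium.

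Gene lists of neighbouring processes were set beside these results. Of 20 interferon-responsive genes, 19 were measured in Pdgfra fibroblasts, 1 higher at P7 and 5 at P1, where 3.07% and 4.32% of all genes were, with a median log2 ratio of -0.17 beside -0.01 for all genes. Among genes with at least 50 UMIs, Irf9, Bst2 and Irf7 had the largest ratios there, at -1.79, -1.37 and -1.15. In the epicardium 10 were measured, 1 higher at P7 and 3 at P1, where 4.71% and 5.86% of all genes were, and those with at least 50 UMIs and the largest ratios were Bst2 at -1.38, Gbp2 at 0.58 and Gbp7 at 0.52. Of 14 acute phase genes, 9 were measured in Pdgfra fibroblasts, 1 higher at P7 and 3 at P1, beside the same 3.07% and 4.32% of all genes, and by the same rule Serpina3n stood at -2.05, Nfkbia at -1.15 and Cp at -0.86. The epicardium had 5 measured, none higher at P7 and 1 at P1, beside 4.71% and 5.86% of all genes, with Nfkbia at -1.08, Socs3 at 0.76 and Cebpb, a C/EBP factor, at 0.53, from 348 and 502 CPM. Of the 10 adipocyte-list genes, 3 were measured in Pdgfra fibroblasts, none higher at P7 and 1 at P1, beside 3.07% and 4.32% of all genes. Lipe had -1.34, Fabp4 -0.53 and Pnpla2 -0.37. In the epicardium 2 were measured, and Fabp4 had 0.06. Fabp4 and Lipe are also expressed outside fat cells.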

How the data were processed

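The P1 and P7 libraries each held a 10x matrix of raw UMI counts per gene and barcode, made by the authors with Cell Ranger 3.1.0 on mm10 (GRCm38), per the submitters' processing notes in the labels; the annotation release was not given in the sources used here. These deposited counts were not normalised. Barcodes with 200 to 8000 genes and at most 20% mitochondrial UMIs were kept, and no doublet caller was run. A cell entered a lineage with at least 2 UMIs of a gate gene, if that lineage held at least 75% of its gate-gene UMIs. Pdgfra and Pi16 were counted together for the fibroblast lineage, and Myh11 and Kcnj8 together for the mural lineage. Fibroblasts with at least 2 Pi16 UMIs were Pi16 fibroblasts whatever their Pdgfra count, and the rest with at least 2 Pdgfra UMIs were Pdgfra fibroblasts. Mural cells became smooth muscle or pericytes by the larger of Myh11 and Kcnj8. Ties and cells with more evenly mixed lineages stayed ungated. Lymphocytes, with at least 2 UMIs of Cd3e, Cd3g, Cd79a and Cd79b and no gate, served as background. UMIs were summed per class and library, with exact Poisson intervals for CPM, Clopper-Pearson intervals for shares, and exact conditional binomial intervals for ratios, to whose sums 0.5 counts were added. A count of 0 was bounded by 3 counts. The interval script was tested on simulated data. Depth per library was 59026295 and 97432007 UMIs in cells kept.

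The members and lists were chosen with earlier results of these data known. Genes named were the 8 members, other complement genes with at least 50 UMIs in a class (given where highest), the 3 largest ratios with at least 50 UMIs of each neighbouring list in Pdgfra fibroblasts and epicardium, and the 3 genes most like each member among those with a mean of at least 10 CPM, gate genes left out. Further genes, such as class copies and leukocyte markers, were named after their values were seen. A further complement gene is not reported here. Positions came from GENCODE on GRCm38 and promoters from RefSeq. Analyses used Python 3.11.15, numpy 2.4.6, scipy 1.17.1 and pandas 2.3.3.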

Additional observations from a re-analysis of the deposited data

Results flagged for a closer look

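C2 moved in opposite directions between classes. Its log2 ratio of P7 over P1 was 1.08 in macrophages (15 and 29 UMIs) and -1.05 in Pdgfra fibroblasts (79 and 33 UMIs) and -1.52 in Pi16 fibroblasts (21 and 66 UMIs). With 1 library per age, the difference between these classes was not tested. After thinning to 2000 UMIs per cell the ratio in Pi16 fibroblasts was 0.0274, on the other side of 0.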

How the results depend on the processing

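The counts of members past 2-fold by age and the ratios of the members were computed under 13 other settings and 2 more that were chosen after seeing the data. Of the counts, 158 stayed within 1.5 times their value and 22 did not. In Pdgfra fibroblasts 2 members were higher at P7 with a gate at 1 UMI or with every gate passed, and the number higher at P1 was 2 at 1 UMI, 3 with no minimum, and 0 with every gate passed or after thinning. In Pi16 fibroblasts 2 were higher at P7 without cells with lung or posterior UMIs, and the number higher at P1 was 0 after thinning and 1 where a Pdgfra UMI was required. In the epicardium 2 were higher at P7 without cells with lung or posterior UMIs and 1 with no minimum. In smooth muscle 1 was higher at P7 after thinning, by the mean of per-cell CPM and without cells with lung or posterior UMIs, and 1 was higher at P1 with a gate at 3 UMIs, a mitochondrial limit of 10%, scaling without mitochondrial, ribosomal and haemoglobin genes, or no minimum. In pericytes 1 was higher at P7 after thinning and with a minimum of 50 UMIs, and 4 with no minimum, and over all cells 1 was higher at P7 after thinning. Thinning leaves fewer UMIs, so fewer members reach 20 UMIs. The cause of the other changes was not tested. The share of all genes past 2-fold under each setting was not set beside these counts, so they are not read as results about the members. C2 in Pi16 fibroblasts reversed after thinning, to a log2 ratio of 0.0274. Of the ratios, 512 stayed within the counting interval of their reported value, which for sparse genes can include both directions, and 42 did not. No paired analysis was possible because each age has 1 library, and no replicate could be left out. The epicardial values rest on 49 and 28 cells.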
